A study of Mus musculus with 16 samples.

Results

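The comparison described here is that of hyperoxia with normoxia in alveolar epithelial type II (AT2) cells from mouse pups heterozygous for Fgf10. Its members were chosen by sample title and genotype label, which give 4 normoxia and 2 hyperoxia samples of this genotype, 6 of the 16 arrays of the series. The study measured RNA of AT2 cells on single-colour arrays in a design of genotype by oxygen. Fgf10+/- pups carry 1 altered allele of Fgf10, a mesenchymal growth factor, and the wild-type groups carry none. Pups of the hyperoxia groups breathed 85% oxygen in a chamber between postnatal day 0 and day 3, the normoxia groups were not given extra oxygen, and the labelled age of all samples is postnatal day 3. The 10 wild-type arrays (4 normoxia, 6 hyperoxia) served here to estimate the spread and as the other genotype.

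The design text states 4 samples per group, whereas the labels give 2 for Fgf10+/- hyperoxia and 6 for wild-type hyperoxia; the labels were followed. The sources used here do not say how the Fgf10 allele was made, how AT2 cells were isolated, or whether a sample is 1 pup or a pool, so p-values measure the spread between these samples. Because only 2 hyperoxia samples carry this label, values are given sample by sample, always with normoxia replicates 1, 2, 3 and 4 before hyperoxia replicates 1 and 2.

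AT2 cells make surfactant and act as stem cells of the alveolus, and they also carry MHC class II molecules without being professional antigen-presenting cells. Interferons raise both classes of MHC molecules and a set of antiviral genes through STAT and IRF factors, and NF-kB and STAT3 drive acute-phase and neutrophil-recruiting genes in lung epithelium. Oxygen in excess damages DNA and engages p53, and prolonged exposure of newborn mice arrests alveolar growth.

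AT2 markers were present in all 6 samples. Sftpc, the surfactant protein C gene, lay at the top of the scale (15.97 to 15.98 on the log2 intensity scale), so a change of it could not be measured, and Sftpd, a collectin of surfactant, lay between 14.09 and 15.38. The Fgf10 feature was dim, at 4.22, 4.77, 4.02, 4.68, 5.38 and 4.76, against a background level of 4.70, the 95th percentile of 1341 olfactory and vomeronasal receptor genes. It did not check the genotype. Some libraries stood apart in markers of other cells. The mean of 10 thymocyte markers was 5.74, 6.38, 4.25 and 5.54 in normoxia and 4.31 and 4.27 in hyperoxia, so that normoxia replicates 1, 2 and 4 were above both hyperoxia samples. The Y-linked gene Eif2s3y was at 7.51 and 7.38 in normoxia replicates 1 and 3 and at 4.13 or below in the other 4 samples, while sex is not labelled. The other measured sex-linked genes, Kdm5d, Uty and Xist, were dim in all 6 samples (2.42 to 5.41), and the Y-linked Kdm5d was highest in hyperoxia, at 3.84 and 5.41. In these bulk samples, fewer cells of a type and less RNA per cell cannot be told apart.

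By limma with Benjamini-Hochberg adjustment over 20725 genes, 245 genes rose (1.18%) and 262 fell (1.26%) in Fgf10+/- hyperoxia, 2.45% in all. At an unadjusted p under 0.05 there were 3462 of the 20725 genes, the share to set beside such counts of list members below. The 2 hyperoxia samples lay outside the range of the 4 normoxia samples for each of these 507 genes. Over all genes, both hyperoxia samples lay above the 4 normoxia samples in 12.4% and below them in 13.6%, the shares to set beside such counts of list members below. Of the risen genes 231 differed by at least 2-fold and 118 by at least 4-fold, and of the fallen genes 244 and 43. A set of co-varying features described further on held 109 of the risen genes, and without it 95 genes rose and 187 fell. With each array centred on its median the counts were 270 risen and 167 fallen, because the median change of all genes moved from -0.04 to 0.06, a shift that applies to every value below. The call count was 90 without hyperoxia replicate 1, 108 without hyperoxia replicate 2, 252 without normoxia replicate 1, 278 without normoxia replicate 4, and 14 when the 4 libraries with the highest thymocyte marker mean were left out. That last fit leaves 1 Fgf10+/- normoxia library. Only 9 risen and 11 fallen genes passed whichever of the 6 Fgf10+/- samples was left out.

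**Figure D1:**
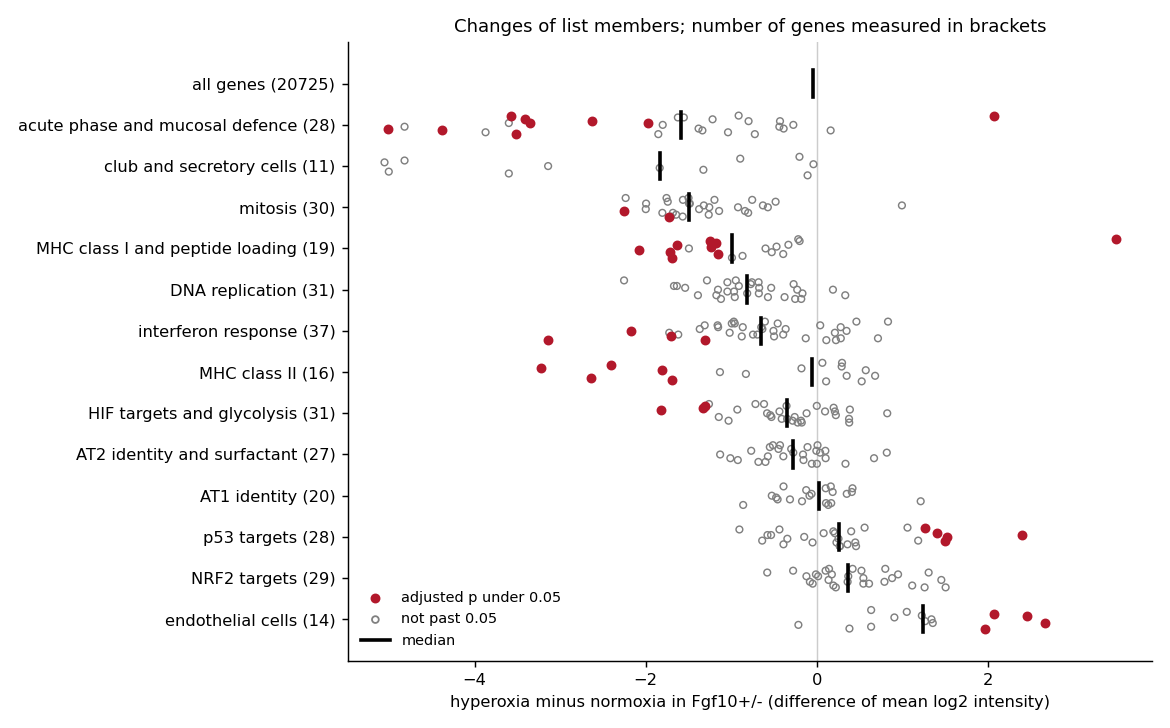
Each point is 1 gene, placed by its difference of mean log2 intensity, hyperoxia (n = 2) minus normoxia (n = 4), in Fgf10+/- AT2 samples, with filled points for an adjusted p under 0.05 by limma and black bars for list medians. Acute-phase genes (median -1.59), mitosis genes (-1.49) and MHC class I genes (-0.99) lay below the median of all genes (-0.04), and endothelial markers (1.25) above it.

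MHC class II genes held the changes with the smallest p-values among the genes that fell. Cd74 encodes the invariant chain that guards the class II groove, H2-Ab1, H2-Aa and H2-Eb1 encode the alpha and beta chains, and H2-DMb1 is part of the peptide exchange factor H2-DM. These 5 genes fell, out of 16 members measured, and 0 rose. The promoters of the 3 with an entry in the RefSeq promoter table (GRCm38.p6) are shown because class II genes share paired X and Y boxes close to the start site. Capitals mark the X box, searched as CC, AG, AC and ATG spaced by 1, 2 and 2 bases of any kind, and the Y box, searched as GATTGG, both on either strand, and each line runs from 110 bases before the start site to the last base before it.
H2-Eb1 (chr17:34305757-34305866, plus strand): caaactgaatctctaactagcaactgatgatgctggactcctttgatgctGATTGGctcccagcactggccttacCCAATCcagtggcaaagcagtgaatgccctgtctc
H2-Aa (chr17:34287824-34287933, minus strand): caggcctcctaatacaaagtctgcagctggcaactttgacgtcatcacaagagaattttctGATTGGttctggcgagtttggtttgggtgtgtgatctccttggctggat
H2-DMb1 (chr17:34153081-34153190, plus strand): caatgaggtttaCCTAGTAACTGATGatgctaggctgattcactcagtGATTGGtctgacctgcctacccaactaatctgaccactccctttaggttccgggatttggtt
The Y box letters stood in all 3 of these windows and in 14.6% of all promoter windows of 250 upstream bases. The X box letters matched in H2-DMb1 alone of the 3, and in 0.161% of all windows. A match is a description of the letters and no measured site.

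Cd74 measured 11.24, 10.16, 11.37 and 11.11 in normoxia and 8.08 and 7.42 in hyperoxia, 9.32-fold lower. H2-Ab1 measured 10.52, 10.48, 10.64 and 10.71 against 7.75 and 8.16, 6.21-fold lower. For H2-Eb1 the values were 9.97, 10.02, 9.83 and 10.03 against 7.54 and 7.58, 5.28-fold lower. In all 3 genes every normoxia sample stood at least 2.08 log2 units above the higher hyperoxia sample, and the tight normoxia values of H2-Ab1 and H2-Eb1 left a wide gap. The log2 changes were -3.22 for Cd74 (SE 0.37, adjusted p = 7.23e-04 by limma), -2.63 for H2-Ab1 (SE 0.24, adjusted p = 6.52e-05) and -2.40 for H2-Eb1 (SE 0.34, adjusted p = 0.0027). These 3 passed with any of the 6 samples left out, and a second H2-Ab1 feature differed by -2.78.

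H2-Aa was dimmer, at 5.84, 6.52, 6.82 and 7.01 against 4.65 and 4.81, both near background. H2-DMb1 was at 7.32, 7.01, 7.63 and 8.19 against 5.80 and 5.88. Both fell, by 1.81 and by 1.69 on the log2 scale (limma adjusted p = 0.0297 and 0.0084). H2-Aa was lost in 5 of the 6 fits without 1 sample, with changes from -2.05 to -1.66. H2-DMb1 was lost without hyperoxia replicate 1 (-1.65) or 2 (-1.73).

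None of the other 11 class II members passed. The H2-DM chain H2-DMa (-1.13, adjusted p = 0.186 by limma) and H2-Oa (-0.83, adjusted p = 0.379 by limma) also had both hyperoxia samples below all 4 normoxia samples, which held for 7 of the 16 members. Ciita, the master activator of class II genes, lay near background at 3.18, 4.23, 3.08, 4.03, 4.46 and 3.84 (adjusted p = 0.574 by limma). The lysosomal proteases Ctss and Lgmn, which trim the invariant chain, differed by 0.68 and 0.57 with both hyperoxia samples highest, and the RFX subunits Rfx5, Rfxap and Rfxank by -0.18, 0.30 and 0.35, none of them past the threshold. The list median was therefore -0.06, close to the -0.04 of all genes. Means of markers of immune cells that carry class II were measured beside these genes, many of them dim. The mean of 14 macrophage markers, 7 of them near background, was 4.68 to 4.91 in normoxia and 5.28 to 5.32 in hyperoxia. That of 7 B cell markers 4.42 to 4.79 and 4.99 to 5.03, and that of 7 dendritic cell markers, 6 of them near background, 3.90 to 4.73 and 4.38 to 4.59. Of 28 markers in these 3 lists 0 passed, but the dendritic marker Clec9a (-0.93) and the B cell marker Fcer2a (-1.02), both near background in hyperoxia, had both hyperoxia samples lowest. The part of these cells in the class II changes was not tested. In the fit with the thymocyte marker mean as covariate, Cd74 was at -3.73 and H2-Ab1 at -2.56, both past the threshold (adjusted p = 5.34e-04 and 0.00118 by limma).

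MHC class I and peptide-loading genes were lower as well, by smaller steps. Of 19 members 8 fell and 1 rose, 18 had a negative change, and 15 had both hyperoxia samples below all 4 normoxia samples. The median was -0.99. The heavy chain H2-K1 measured 13.05, 12.23, 13.55 and 13.17 against 11.44 and 11.30, 3.1-fold lower, and its 11 features differed by -1.77 to -1.53. H2-D1, another classical heavy chain, was at 11.55, 11.28, 12.30 and 11.88 against 10.02 and 10.06, 3.28-fold lower. B2m, the light chain of all class I molecules, was at 12.22, 11.98, 12.38 and 12.20 against 10.68 and 11.22, 2.37-fold lower. In each of these the groups were apart by at least 0.76 log2 units. Class I genes have near-identical copies, and signal shared between their probes was not tested.

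The adjusted p-values by limma were 0.0174 for H2-K1, 0.0166 for H2-D1 and 0.0325 for B2m. Tapbp, the tapasin that loads class I (-1.17), the non-classical H2-T23 (-1.23) and H2-M3 (-1.15), and the immunoproteasome subunits Psmb8 (-2.07) and Psmb9 (-1.69) also fell, with limma adjusted p-values of 0.0281 to 0.0473. None of the 8 fallen class I genes passed without either hyperoxia sample: H2-K1 was -1.70 without replicate 1 and -1.56 without replicate 2, and B2m -0.98 and -1.51. All but H2-K1 and H2-D1 were also lost in 2 or 3 of the fits without a normoxia sample. Psmb8 followed the thymocyte markers over the normoxia samples, at 9.23, 10.08, 8.32 and 9.17 against 6.72 and 7.53. Its change was -0.98 (adjusted p = 0.207 by limma) with the thymocyte mean as covariate, whereas H2-K1 was then at -2.11 (adjusted p = 0.01). H2-Q4 rose by 3.50, but it followed a set of co-varying features described further on.

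Of 37 measured interferon-response genes 4 fell and 0 rose. In all 27 had a negative change and the median was -0.65. Both hyperoxia samples were lowest in 17, where 13.6% of all genes were, and highest in 4, where 12.4% of all genes were. The promoters of B2m, Oas1a and Cxcl10 are shown because all 3 genes fell and hold binding motifs of interferon-activated factors or of NF-kB. Capitals mark the interferon-stimulated response element (ISRE, searched as GAAA, 2 bases of any kind and GAAA), the STAT site in Oas1a (TTCNNNGAA), the NF-kB site in B2m and Cxcl10 (GGG, 3 bases of any kind and TTCC), and the Y box letters in B2m, all on either strand. The B2m and Cxcl10 lines end at position -41 from the start site, and the Oas1a line at position -1.
B2m (chr2:122147537-122147646, plus strand): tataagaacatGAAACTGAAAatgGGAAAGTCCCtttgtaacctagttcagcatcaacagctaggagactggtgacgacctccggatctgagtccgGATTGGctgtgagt
Oas1a (chr5:120907526-120907635, minus strand): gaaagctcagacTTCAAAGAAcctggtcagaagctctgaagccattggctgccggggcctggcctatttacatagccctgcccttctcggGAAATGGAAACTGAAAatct
Cxcl10 (chr5:92348930-92349109, minus strand): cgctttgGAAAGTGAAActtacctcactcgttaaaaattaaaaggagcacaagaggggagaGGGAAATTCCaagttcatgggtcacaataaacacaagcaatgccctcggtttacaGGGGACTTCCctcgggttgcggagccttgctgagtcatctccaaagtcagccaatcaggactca
The capitals at the end of the Oas1a line are 2 overlapping ISRE matches, and Cxcl10 holds 2 separate NF-kB matches. Among all promoter windows 2.98% held the ISRE letters, 7.02% the STAT letters and 4.65% the NF-kB letters. Of the 4 fallen interferon genes 2 had an ISRE match, and of the 8 fallen class I genes 2. These are counts of genes, which can have several windows, and cannot be set directly against the window shares.

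Oas1a, a sensor of double-stranded RNA that activates RNase L, measured 7.83, 7.52, 8.75 and 8.83 in normoxia and 5.05 and 5.12 in hyperoxia, 8.83-fold lower. The 2 hyperoxia values were alike and lay at least 2.39 log2 units below the lowest normoxia value. Its change of -3.14 (SE 0.41, adjusted p = 0.00214 by limma) passed with each sample left out, and a second, dimmer Oas1a feature differed by -1.55. Cxcl10, the interferon-induced chemokine for T cells, was at 9.61, 10.03, 9.43 and 10.26 against 7.17 and 8.16, 4.51-fold lower. Oasl2, an oligoadenylate synthetase-like gene, was at 8.60, 7.90, 8.64 and 8.47 against 6.59 and 6.80, 3.26-fold lower. The immunity-related GTPase Ifi47 was at 7.82, 7.32, 7.22 and 7.54 against 5.78 and 6.55, 2.48-fold lower. The limma adjusted p-values of these 3 were 0.00328, 0.00513 and 0.0225. Without hyperoxia replicate 1, Cxcl10 was at -1.68, Oasl2 at -1.60 and Ifi47 at -0.92, and none passed; Ifi47 was lost in 2 further fits.

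Other interferon genes did not pass. Isg15 differed by -1.72, Oas2 by -1.62 and Mx1 by -0.99, each with both hyperoxia samples lowest. The chemokine Cxcl11 (0.72), Oas3 (0.46) and Ifit2 (0.28) had both hyperoxia samples highest, as 4 of the 37 genes did and 12.4% of all genes. Cxcl11 follows the co-varying set described further on, and Oas3 was near background. Ifih1 and Stat2 differed by 0.28 and 0.23. Of 13 interferon ligands, receptors and kinases, 0 passed and 0 reached an unadjusted p of 0.05, with the receptor chain Ifngr1 at -0.45 and the kinase Jak1 at -0.41.

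**Figure D2:**
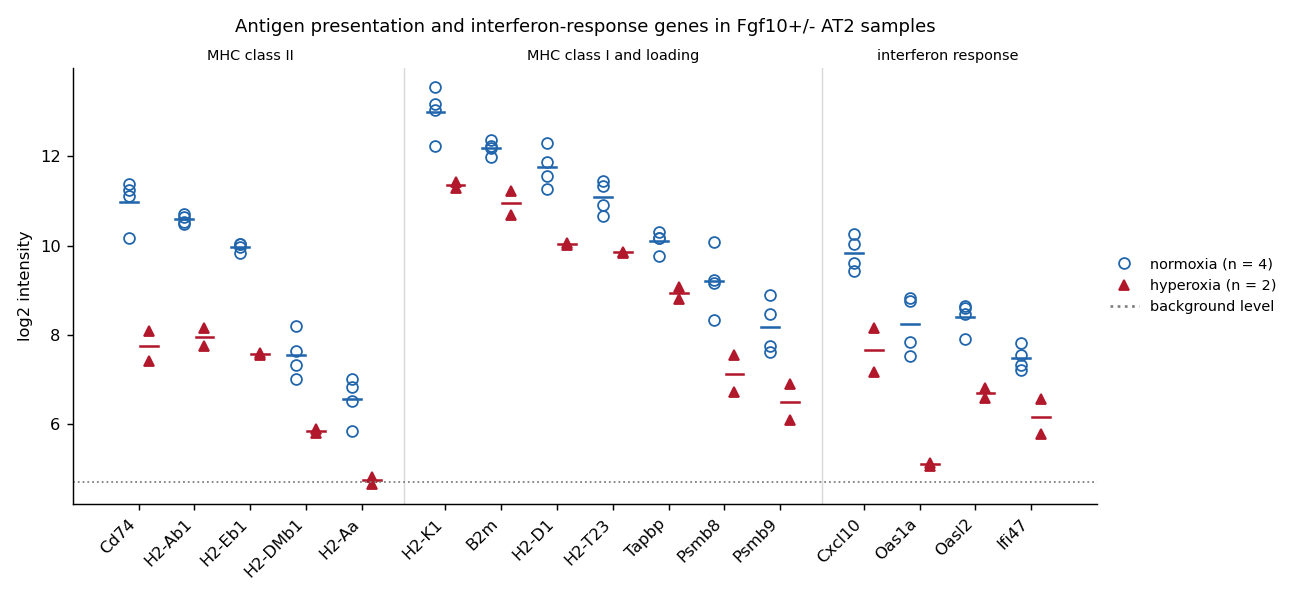
Log2 intensity of MHC class II, class I and interferon-response genes that fell, with open circles for the 4 normoxia and triangles for the 2 hyperoxia samples, bars for group means and a dotted line at the background level. The 2 hyperoxia samples lie below all 4 normoxia samples in every gene drawn, and for Oas1a and H2-Aa they approach the dotted line.

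Acute-phase and mucosal defence genes gave the lowest changes among called genes. Of 28 members 8 fell, 1 rose and 26 had a negative change, and the median was -1.59. Saa3, a serum amyloid A made in the lung, measured 10.97, 10.91, 12.76 and 13.56 in normoxia and 6.49 and 7.59 in hyperoxia, 32.2-fold lower. Cfb, complement factor B of the alternative pathway, measured 10.57, 10.39, 11.39 and 12.10 against 6.09 and 7.37, 20.9-fold lower. Lcn2, which starves bacteria of siderophore iron, measured 12.72, 11.79, 13.34 and 12.94 against 10.08 and 8.18, 11.9-fold lower. The spread within normoxia was wide in these genes, with replicates 3 and 4 above 1 and 2, yet both hyperoxia samples lay below all 4.

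Lrg1, a leucine-rich glycoprotein of the acute phase, was at 10.53, 9.01, 10.31 and 10.79 against 7.47 and 6.15, 10.2-fold lower. Itih4, of the inter-alpha-trypsin inhibitor heavy chain family, was at 9.95, 8.63, 10.06 and 10.14 against 6.92 and 5.66, 10.6-fold lower. Saa1 was at 8.52, 7.97, 9.53 and 10.71 against 5.46 and 5.87, 11.5-fold lower. Replicate 2 was the lowest normoxia sample in all 3, and its values lay at least 1.54 log2 units above hyperoxia. The log2 changes were -4.38 for Cfb (SE 0.59, adjusted p = 0.00233 by limma), -3.41 for Itih4 (SE 0.48, adjusted p = 0.0027) and -3.35 for Lrg1 (SE 0.47, adjusted p = 0.0027), and these 3 passed with each sample left out. A second Itih4 feature differed by -2.12.

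Saa3 changed by -5.01 (limma adjusted p = 0.0208), Saa1 by -3.52 (adjusted p = 0.0174) and the LPS-binding protein Lbp by -1.97 (adjusted p = 0.0106). Without hyperoxia replicate 1 they were at -4.46, -3.32 and -1.91, without replicate 2 at -5.56, -3.72 and -2.03, and none passed in either fit. Lcn2 (-3.57, adjusted p = 0.00499) was at -2.62 without hyperoxia replicate 2 and did not pass. Ceruloplasmin, Cp (-2.62, adjusted p = 0.0447), was lost in 5 of 6 such fits, over which it ran from -3.31 to -1.94. Pigr, the transporter of dimeric IgA, rose by 2.07 on its brightest feature, which follows the co-varying set, whereas its other feature differed by -2.64.

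Club and secretory markers moved beside the acute-phase genes. All 11 had a negative change with a median of -1.84, 7 had both hyperoxia samples lowest, and 0 passed. Their mean was 11.44, 11.04, 12.08 and 12.15 in normoxia and 8.56 and 10.07 in hyperoxia. Scgb3a1, a secretoglobin of airway cells, was at 15.29, 14.85, 15.78 and 15.78 against 8.04 and 12.71, so the 2 hyperoxia samples differed from each other by 4.67 log2 units. Scgb1a1 and Cyp2f2, defining genes of club cells, differed by -0.11 and -0.20, and Scgb1a1 was near the top of the scale. With the club and secretory mean as covariate, an alternative added after the data had been seen, Cfb was at -3.34, Itih4 at -3.78, Lrg1 at -3.32 and Lcn2 at -2.84, all past the threshold. Saa3 was then at -3.12 and Saa1 at -2.58, and neither passed (limma adjusted p = 0.105 and 0.103). Reg3g and Bpifa1 belong to both lists.

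**Figure D3:**
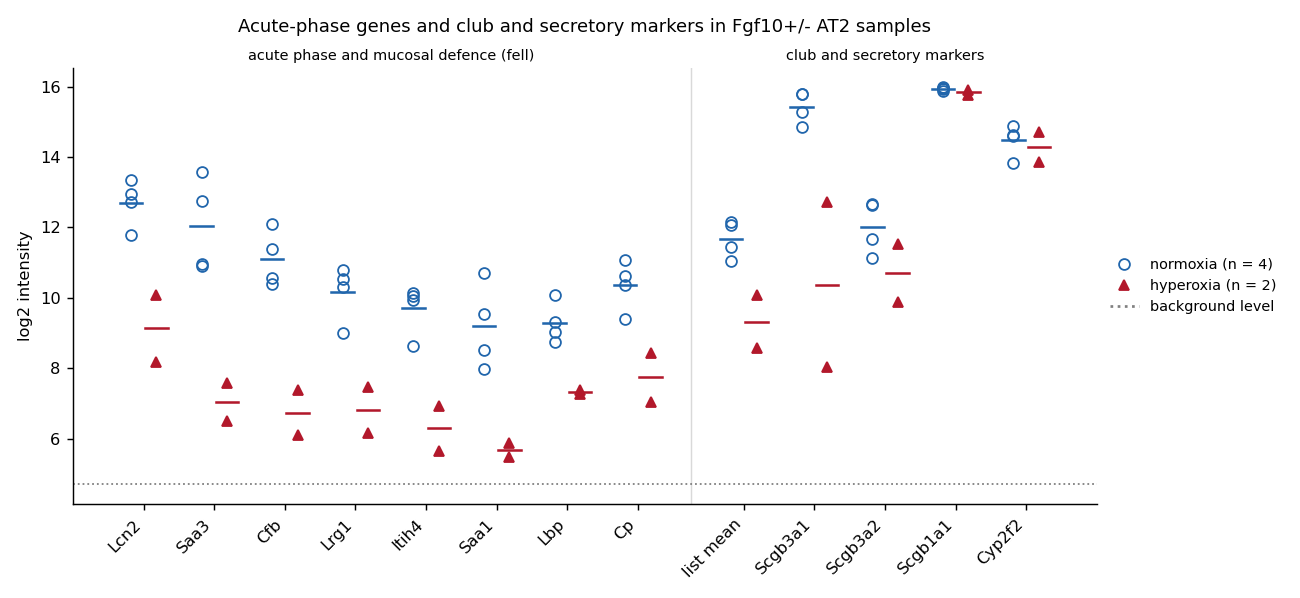
Log2 intensity of the 8 acute-phase and mucosal defence genes that fell and of club and secretory markers, with open circles for the 4 normoxia and triangles for the 2 hyperoxia samples, bars for group means and a dotted line at the background level. The secretory marker mean and Scgb3a1 are lower in hyperoxia and lowest in replicate 1, while Scgb1a1 and Cyp2f2 overlap between the groups.

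Few other inflammatory genes passed. Of 23 chemokines and cytokines, Cxcl1, a neutrophil chemokine, fell, 20 had a negative change and the median was -0.34. Of 15 NF-kB subunits and feedback inhibitors, Tnfaip3 (A20) and Nfkbia (IkB alpha) fell, 13 had a negative change and the median was -0.47. Both inhibitors are themselves targets of NF-kB, and the promoters of all 3 genes are shown because each holds the NF-kB letters on either strand, in capitals, within 100 bases before the start site.
Cxcl1 (chr5:90891145-90891244, plus strand): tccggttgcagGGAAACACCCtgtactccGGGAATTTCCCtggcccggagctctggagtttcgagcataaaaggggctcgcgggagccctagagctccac
Nfkbia (chr12:55492648-55492747, minus strand): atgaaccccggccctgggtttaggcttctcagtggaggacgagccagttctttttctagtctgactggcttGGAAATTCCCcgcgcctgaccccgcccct
Tnfaip3 (chr10:19015411-19015510, minus strand): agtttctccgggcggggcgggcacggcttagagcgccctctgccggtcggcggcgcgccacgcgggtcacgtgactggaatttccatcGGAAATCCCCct
In Cxcl1 the second run of capitals is a pair of overlapping matches, 1 on each strand. Of 203 fallen genes with a promoter entry, 18 held the letters within 250 upstream bases. Among all promoter windows 4.65% held them. A gene can have several windows, so the count of genes cannot be set directly against that share.

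Cxcl1 measured 8.03, 7.46, 8.46 and 8.43 against 5.48 and 6.58, 4.19-fold lower. Tnfaip3 measured 9.80, 9.76, 9.62 and 10.02 against 8.26 and 8.63, 2.56-fold lower. Nfkbia measured 13.51, 12.99, 13.47 and 13.36 against 12.15 and 12.34, 2.13-fold lower. All 3 had separate groups, with the least gap in Nfkbia. Their limma adjusted p-values were 0.0119, 0.00649 and 0.024. Without hyperoxia replicate 1 the changes of Cxcl1 and Tnfaip3 were -1.52 and -1.17 and did not pass, and Nfkbia was lost in 4 of the 6 fits (-1.20 to -0.99). The other neutrophil chemokines Cxcl2, Cxcl3 and Cxcl5 differed by -0.10, 0.81 and -0.08 without passing. Of 15 acute-phase receptors and transcription factors 0 passed, with Stat3 at -0.82 (adjusted p = 0.141 by limma).

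Targets of hypoxia-inducible factor and glycolysis genes gave 3 fallen members of 31 and a median of -0.35. Ndrg1, a hypoxia-induced differentiation gene, was at 9.76, 10.49, 9.46 and 10.10 against 7.76 and 8.51, 3.53-fold lower (limma adjusted p = 0.0174). Pfkl, the liver phosphofructokinase, fell 2.51-fold (adjusted p = 0.0168 by limma), and the lactate exporter Slc16a3 fell 2.48-fold (adjusted p = 0.0332 by limma). Ndrg1 was at -1.44 without hyperoxia replicate 1, Pfkl at -1.36 and -1.30 without replicate 1 or 2, and none of these fits passed; Slc16a3 was lost in 5 of 6 fits (-1.48 to -1.18). Vegfa, Hif1a and the related factor Epas1 differed by 0.10, 0.38 and 0.39. Ddit4, a stress-induced inhibitor of mTORC1, was the 1 of 21 unfolded protein and integrated stress response genes that fell, at 12.48, 11.85, 10.62 and 11.34 against 9.75 and 9.41 (limma adjusted p = 0.0412, lost in 5 of 6 fits, -2.31 to -1.69).

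Most proliferation genes had negative changes, but few passed. Of 30 mitosis genes 29 had a negative change, 25 had both hyperoxia samples lowest, 26 had an unadjusted p under 0.05 and the median was -1.49, but only Cdca3 and Prc1 passed. The array means were 7.15, 7.58, 6.58 and 7.15 in normoxia and 5.76 and 5.83 in hyperoxia. Cdca3, a trigger of mitotic entry, was at 8.04, 8.86, 7.60 and 7.99 against 5.86 and 5.89, 4.75-fold lower (limma adjusted p = 0.0202). Prc1, which bundles the midzone microtubules of the spindle, was at 8.28, 8.43, 7.71 and 8.01 against 6.13 and 6.64, 3.31-fold lower (adjusted p = 0.0402 by limma). Normoxia replicate 2 was the highest and replicate 3 the lowest normoxia sample in both, the same order as for thymocyte markers.

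Mki67, the Ki-67 gene, was at 10.64, 10.57, 9.20 and 9.96 against 8.47 and 8.58, with separate groups and an adjusted p of 0.16 by limma. Of 31 DNA replication genes 0 passed, 29 had a negative change and the median was -0.81. With the thymocyte mean as covariate the mitosis median was -0.83 and that of DNA replication -0.02, and 0 members of either list passed. Without hyperoxia replicate 1 or 2 Cdca3 was at -2.23 or -2.26 and did not pass, and Prc1 was lost in 5 of 6 fits (-1.98 to -1.47).

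Among 15 imprinted growth genes Dlk1 and H19 fell. Dlk1, a Notch-related membrane protein of immature cells, measured 11.82, 10.46, 11.75 and 11.62 against 8.95 and 7.92, 7.86-fold lower (-2.98, SE 0.40, adjusted p = 0.00233 by limma), and passed with each sample left out. A second Dlk1 feature differed by -3.61. The maternally expressed long RNA H19 measured 12.71, 13.02, 11.96 and 12.94 against 9.91 and 10.65, 5.2-fold lower (adjusted p = 0.00328 by limma), and was at -2.0 without hyperoxia replicate 1, where it did not pass. Both genes had groups at least 1.31 log2 units apart. Igf2, which shares its imprinted locus with H19, differed by -0.89, the growth inhibitor Cdkn1c by -1.23 and Meg3, beside Dlk1, by 0.69, and none of the 3 passed. Chad, a cartilage matrix protein, was among the 10 lowest named changes, at 7.95, 7.28, 8.39 and 8.40 against 4.43 and 5.16 (-3.21, limma adjusted p = 0.0262, lost in 4 of 6 fits, -3.57 to -2.85).

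Genes induced by p53 rose in part. Of 28 measured targets 5 rose and 0 fell, and the median was 0.26. Phlda3, an AKT inhibitor, measured 8.64, 7.42, 8.54 and 8.06 against 10.27 and 10.86, 5.27-fold higher. Aen, an exonuclease of apoptosis, measured 8.80, 9.57, 9.18 and 9.20 against 10.38 and 10.54, 2.41-fold higher, and its second feature differed by 1.22. Ccng1, the cyclin G1 gene, measured 6.37, 6.79, 6.56 and 6.51 against 7.86 and 8.26, 2.83-fold higher. In these 3 genes both hyperoxia samples were above all normoxia samples by at least 0.80 log2 units.

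The secreted stress factor Gdf15 was at 6.22, 6.42, 6.39 and 5.94 against 7.39 and 7.91, and the death receptor Fas at 4.92, 6.01, 5.66 and 6.19 against 6.45 and 7.99, where hyperoxia replicate 1 was barely above the normoxia samples. Limma with Benjamini-Hochberg adjustment gave 0.00457 for Phlda3, 0.0174 for Aen, 0.0168 for Ccng1, 0.0335 for Gdf15 and 0.0473 for Fas. Phlda3 was at 2.10 without hyperoxia replicate 2, Aen at 1.36 and 1.19 and Ccng1 at 1.70 and 1.30 without replicate 1 or 2, and none of these passed; Gdf15 was lost in 4 of 6 fits (1.15 to 1.67) and Fas in 5 (0.76 to 2.29). Cdkn1a, the p21 gene that halts the cell cycle, was at 10.10, 9.78, 10.11 and 10.01 against 10.09 and 10.06, a difference of 0.08, and its 12 features gave no common direction. Mdm2 differed by 0.27 and the pro-apoptotic Bbc3 by -0.05.

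Endothelial genes were among the highest upward changes outside the co-varying set, a group of features described further on. Of 14 endothelial markers 4 rose, 13 had a positive change and the median was 1.25. Robo4, a guidance receptor of vessels, measured 6.81, 7.11, 7.05 and 6.73 against 8.99 and 10.21, 6.37-fold higher. Egfl7 measured 11.23, 11.38, 11.15 and 10.65 against 12.98 and 14.15. The tight junction gene Cldn5 measured 10.25, 9.68, 9.68 and 9.30 against 11.19 and 12.42. Hyperoxia replicate 2 was the higher sample each time, and the marker means were 7.76, 7.70, 7.53 and 7.34 in normoxia and 8.24 and 9.46 in hyperoxia.

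Their limma adjusted p-values were 0.00532 for Robo4, 0.00714 for Egfl7, 0.0174 for Cldn5 and 0.0327 for the VEGF receptor Flt1. Without hyperoxia replicate 2 the first 3 were at 2.06, 1.88 and 1.46 and did not pass, Flt1 was lost in 5 of 6 fits (1.5 to 2.43), and the list median was 0.64. The defining markers Pecam1, Cdh5 and Kdr differed by 0.38, 1.23 and 1.36 without passing. Among the 10 highest changes of named genes outside the set were the lymphatic hyaluronan receptor Lyve1 (5.65-fold), the protocadherin Pcdh12 (5.75-fold) and Ushbp1 (5.84-fold). The homeobox gene Meox2 (10.7-fold) was also among them. In wild-type normoxia replicates 1 to 4 Meox2 was at 8.85, 5.63, 5.75 and 5.63. The endothelial marker means there were 8.29, 8.58, 8.30 and 8.08, and the fibroblast marker means 10.12, 8.31, 8.25 and 7.91. The cell source of Meox2 was not tested. Lyve1 was at 6.01, 6.64, 6.57 and 6.64 against 8.19 and 9.74 (adjusted p = 0.00758 by limma) and at 1.73 without hyperoxia replicate 2, where it did not pass. Meox2 passed in 0 of the 6 fits without 1 sample (3.02 to 3.83).

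Acvrl1, the endothelial receptor ALK1, and Smad6, an inhibitor of BMP signalling, were the 2 of 23 TGF-beta and BMP genes that rose. Acvrl1 was at 8.50, 7.87, 7.93 and 7.42 against 9.41 and 10.38 (adjusted p = 0.0314 by limma), and Smad6 at 5.75, 6.42, 6.50 and 6.41 against 7.84 and 8.33 (adjusted p = 0.0263 by limma). They were lost in 4 and 3 of the 6 fits (1.48 to 2.45 and 1.57 to 2.06). With the endothelial marker mean as covariate, chosen after the data had been seen, Robo4 was at 1.33, and the call count over all genes was 4. H2-Ab1 at -2.82 and H19 at -3.03 were among those 4. Cd74 was then at -2.91 and Cfb at -4.07 without passing (limma adjusted p = 0.0761 and 0.103). The part of endothelial RNA in the other calls was not tested beyond these fits.

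Adh1, a retinol and alcohol dehydrogenase, had the highest change outside the co-varying set once predicted and clone-named genes were left out. It measured 9.28, 7.57, 7.44 and 6.69 against 11.23 and 12.12, 15.2-fold higher, with an adjusted p of 0.0445 by limma that was lost in 5 of 6 fits (3.49 to 4.44). The mast cell tryptase Tpsb2 was at 4.45, 6.31, 5.38 and 5.30 against 8.09 and 8.59 (adjusted p = 0.0219 by limma), lost in 3 fits (2.67 to 3.29). A second, dimmer Tpsb2 feature differed by 0.35. Slc7a10, H4c8 and Pcdhb21 rose from near background to between 6.22 and 6.86.

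**Figure D4:**
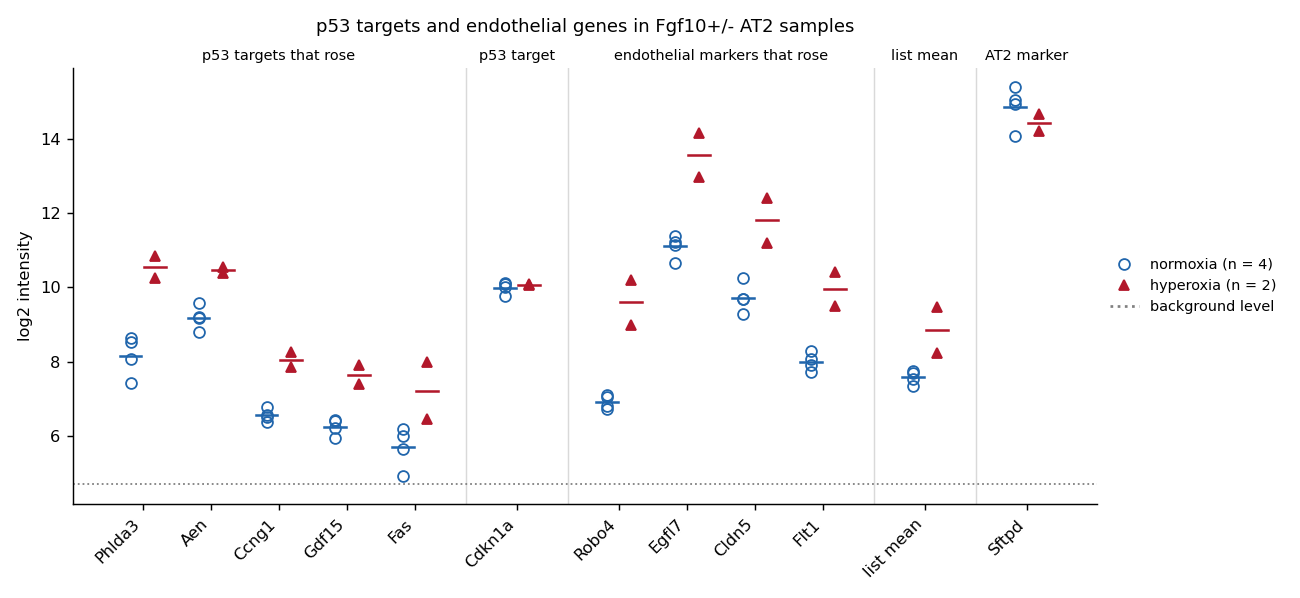
Log2 intensity of p53 targets and endothelial markers in Fgf10+/- AT2 samples, with open circles for the 4 normoxia and triangles for the 2 hyperoxia samples, bars for group means and a dotted line at the background level; Cdkn1a and Sftpd are drawn as genes that did not pass. Hyperoxia replicate 2 is the higher triangle for Robo4, Egfl7, Cldn5 and Flt1, and the Cdkn1a samples all lie between 9.78 and 10.11.

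Of 29 targets of NRF2, a regulator of antioxidant genes, 0 passed. Both hyperoxia samples lay above all 4 normoxia samples in 12 of them and below in 0, 23 had a positive change, 7 were under an unadjusted p of 0.05 and the median was 0.37. The glucuronate enzyme Ugdh (0.79), the oxidase Aox1 (1.46) and the thioredoxin reductase Txnrd1 (0.88) were among these 12. So was Nqo1, a quinone reductase that was dim at 4.33, 4.61, 4.98 and 4.76 against 5.75 and 5.19 (adjusted p = 0.366 by limma), and Hmox1 differed by 0.02. Catalase, Cat, was the 1 of 17 other antioxidant genes that rose (1.57, limma adjusted p = 0.0446). It follows the co-varying set, its second feature differed by -0.35, and it was lost in all 6 fits without 1 sample (1.09 to 2.06).

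No AT2 identity gene passed. Of 27 AT2 identity and surfactant genes 5 had an unadjusted p under 0.05, where 3462 of all 20725 genes did. The median of these 27 genes was -0.27. That median was -0.76 without hyperoxia replicate 1 and 0.16 without replicate 2, so the 2 hyperoxia samples disagreed in direction. Array means were 10.29, 9.73, 10.57 and 10.26 against 10.49 and 9.41. Of 20 AT1 genes 0 passed, with 2 at an unadjusted p under 0.05 and a median of 0.02. The AT1 median was -0.62 without hyperoxia replicate 1 and 0.59 without replicate 2. Ager, an AT1 receptor, was at 11.40, 11.12, 12.54 and 11.75 against 12.43 and 11.24. Of 17 genes of the transitional injured epithelium 0 passed and 0 had an unadjusted p under 0.05. The keratin Krt18 differed by 0.16.

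The lists of FGF genes gave no call by limma. Fgf23, an FGF ligand outside these lists, rose with the co-varying set (3.63, adjusted p = 0.0038 by limma), while its other, dim feature differed by -0.23. Of 13 listed ligands and receptors 2 had an unadjusted p under 0.05, both just short of the threshold. Fgfr4, an FGF receptor, was at 4.29, 5.46, 4.69 and 4.81 against 7.81 and 7.81, a difference of 3.00 (adjusted p = 0.0519 by limma). Fgfr2, the receptor of FGF10 in epithelium, was at 6.82, 6.17, 6.46 and 6.61 against 6.90 and 6.18, and Fgfr3 at 9.86, 8.85, 9.98 and 9.39 against 10.51 and 10.82 (1.15, adjusted p = 0.0509 by limma). Both hyperoxia samples were above all 4 normoxia samples for Fgfr4, for Fgfr3 and for the ligand Fgf7 (1.4, adjusted p = 0.326 by limma). Of 20 FGF targets 0 passed and 2 were under an unadjusted p of 0.05, with the ETS factor Etv5 at -0.45 and the immediate early factor Egr1 at 0.20. Cholesterol synthesis (median -0.16), fatty acid and phospholipid synthesis (-0.19), respiratory chain (0.12), clock (-0.01), glucocorticoid (-0.14) and immediate early genes (-0.36) also had 0 called members. Of their 18, 24, 28, 18, 12 and 19 measured genes, 3, 3, 1, 1, 2 and 4 had an unadjusted p under 0.05, where 3462 of all 20725 genes did.

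Many of the highest changes belonged to features that move together. Within groups, 419 genes followed the mean of 8 features (Hsd3b2, Snap25, Marchf1, Mcidas, Fgf23, Idua, Klra1 and Pign) at r over 0.7, and they held 109 of the 245 risen genes and 0 of the 262 fallen genes. Hsd3b2, a steroid dehydrogenase, was at 9.35, 8.50, 8.58 and 8.66 against 12.97 and 13.49, 22.0-fold higher. Snap25, a protein of synaptic vesicle fusion, was at 8.70, 7.89, 8.28 and 8.66 against 12.37 and 11.73. Marchf1, a ubiquitin ligase of MHC class II, was at 7.68, 7.26, 7.19 and 7.59 against 11.62 and 10.89. The groups were at least 3.02 log2 units apart in all 3. The 8 features had changes of 3.37 to 4.46 and all 8 passed.

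Other features of these genes had a smaller median change, in a comparison that the choice of features favours. In 67 risen genes of the set, 127 other features had a median change of 0.09 against 2.54 for the chosen ones. The 32 that were above background in both groups had a median of 0.46. Each chosen feature was the brightest over arrays that include hyperoxia, and its gene was taken as risen on it. Part of the gap is therefore fixed by the choice. The 32 also leave out any feature that rose from background. The 10 other Marchf1 features differed by -0.73 to 1.5. H2-Q4, at 12.12, 10.81, 11.12 and 11.21 against 14.82 and 14.81, followed the set at r = 0.87. The set was chosen on these samples.

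The same contrast was measured in wild-type pups. It shares no sample with the Fgf10+/- contrast, and 367 genes rose (1.77%) and 282 fell (1.36%) there by limma. Of the genes risen in Fgf10+/-, 172 also rose in wild type, 70.2% of the Fgf10+/- and 46.9% of the wild-type list. Of the fallen genes 106 also fell, 40.5% and 37.6% of the lists. The direction was the same in wild type for 242 of 245 risen and 250 of 262 fallen genes, and 0 genes were called in opposite directions. The share with the same direction over all genes was not counted. Of the 172 genes risen in both, 107 belonged to the co-varying set.

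Called genes had larger changes in Fgf10+/- than in wild type in both directions, but their choice in Fgf10+/- favours large changes there. The fallen genes had a median of -1.44 in Fgf10+/- and -0.76 in wild type, and the risen genes 1.97 and 1.45. Acute-phase genes had medians of -1.59 and -0.40, class I genes -0.99 and -0.34, and interferon genes -0.65 and -0.18, while endothelial markers had 1.25 and 0.52 and p53 targets 0.26 in both. Some lists had the larger median in wild type. MHC class II genes had -0.06 and -0.43, cholesterol synthesis -0.16 and -0.40, and AT2 identity and surfactant genes -0.27 and -0.35. Without hyperoxia replicate 2 the p53 median in Fgf10+/- was 0.077, with 0 calls. Cd74 changed by -3.22 and -1.57, Oas1a by -3.14 and -0.70, and Aen by 1.27 and 1.41.

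The difference between the genotypes was itself tested as an interaction. By limma 2 of 20725 genes passed (0.00965%), and 852 (4.11%) had an unadjusted p under 0.05. Of these 852, 487 (2.35% of all genes) had a lower hyperoxia minus normoxia change in Fgf10+/- than in wild type. The 4.11% is no more than chance gives at that threshold. C1rb, a complement C1r gene with a near-identical copy, was at 5.73, 6.03, 6.02 and 6.69 against 4.33 and 4.36 in Fgf10+/-, and at 4.82 to 5.47 in the 4 normoxia and 5.50 to 5.89 in the 6 hyperoxia samples of wild type. It fell in Fgf10+/- (-1.78, limma adjusted p = 0.00328) and was at 0.42 in wild type (adjusted p = 0.263 by limma), and the difference was -2.20 (SE 0.33, limma adjusted p = 0.0471). Psd2, an ARF exchange factor of brain, gave -2.22 (adjusted p = 0.0471 by limma), but it was at or below 4.18 in all 16 samples, under the background level. With 1 sample left out the interaction count ran from 0 to 3: it was 0 without any one wild-type sample, without normoxia replicate 2, 3 or 4 or without hyperoxia replicate 2, it was 1 without normoxia replicate 1, and 3 without hyperoxia replicate 1.

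Other interferon-linked genes had small unadjusted p-values without passing. Oasl2 gave -1.78, Oas1a -2.44 and Il18bp, the decoy receptor of interleukin 18, -2.14 (all with an adjusted p of 0.551 by limma), and H2-Ab1 gave -1.41 (adjusted p = 0.595 by limma). Oasl2 was at 7.90 to 8.64 in Fgf10+/- normoxia, 6.62 to 7.26 in wild-type normoxia, 6.42 to 7.22 in wild-type hyperoxia and 6.59 and 6.80 in Fgf10+/- hyperoxia. Its Fgf10+/- normoxia samples were the only ones above 7.26. Lrg1 was also highest in that group, at 9.01 to 10.79, against 7.03 to 8.23 in wild-type normoxia, 5.97 to 6.97 in wild-type hyperoxia, and 7.47 and 6.15 in Fgf10+/- hyperoxia. For H2-Eb1 the Fgf10+/- hyperoxia samples, at 7.54 and 7.58, were also below the 8.21 to 9.15 of wild-type hyperoxia. In the other direction Hoxa10 (2.41), Fga (1.93) and Slc10a7 (1.73) had the largest of the 5 named positive differences, each with an adjusted p of 0.988 by limma and normoxia values near background.

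**Figure D5:**
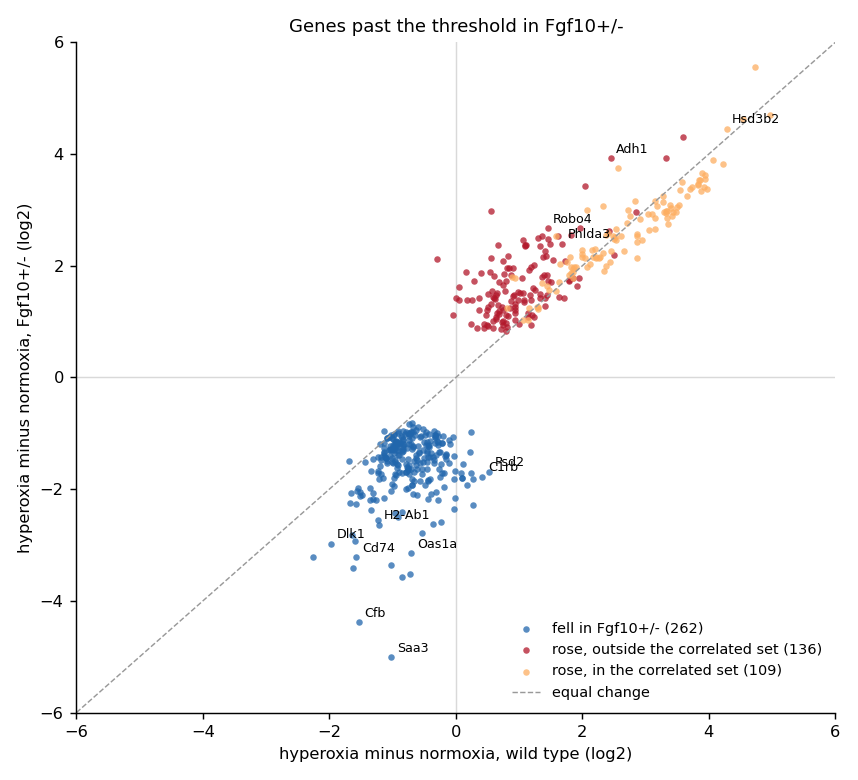
Each point is 1 of the 507 genes past the threshold in Fgf10+/-, placed by its hyperoxia minus normoxia difference of mean log2 intensity in wild type (x axis; n = 6 and 4) and in Fgf10+/- (y axis; n = 2 and 4), with colours for fallen genes, risen genes and risen genes of the co-varying set. Most of the 262 fallen genes lie below the dashed line of equal change, and the genes of the co-varying set lie close to it; choosing genes on the y axis favours large values there.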

How the data were processed

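The authors deposited 1 table of log2 intensities, 1 value per feature and array, as their range (-0.40 to 15.98) was read. The arrays' sorted values differed by at most 0.20, so the deposited values were already normalized to a common distribution. The software, log base, background correction, detection flags, slides and scans, not given in the sources used here, could not be checked. Of 62976 features, 65 lacking a value on some array were dropped. The platform annotation, updated through RefSeq tables (GRCm38.p6), named 31439 features, 29027 by accession, 2059 by symbol, 348 by synonym and 5 by their listed name. The brightest feature over 16 arrays stood for each of 20725 genes. Features of the same gene are read on the same arrays and are not independent samples. Whether some of them repeat the same probe was not checked. No filter on low values was applied.

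Group means of all 16 arrays were fitted in R 4.3.3 by limma 3.58.1 (lmFit and eBayes), so that the groups shared 1 spread, with Benjamini-Hochberg adjustment over all genes and a threshold of 0.05. Fold values are differences of group means on the log2 scale. It was tested on simulated data for the Fgf10+/- comparison (20725 genes, 200 changed, 5 runs), where it called 14.6% of 2-fold and 69.4% of 4-fold changes, and 5.36% of its calls were false. Precision is limited by how many arrays each group has. Tables and figures were made with Python 3.11.15, pandas 2.3.3 and matplotlib 3.10.9. Motifs were searched in the 250 bases before each RefSeq start site. Where a gene had more than 1 entry, the first was printed, and counts of genes took a match in any entry.

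Named genes were the 10 highest and 10 lowest changes among called genes with separate groups and a fold of at least 1.5, without predicted or clone-named genes. They also included the 10 highest outside the co-varying set with a hyperoxia mean of at least 6, at most 6 called genes per list (or its 2 brightest), the 5 smallest interaction p-values in each direction, and Ager, Cdkn1a, Fgf10, Fgfr2, Mki67, Nqo1 and Sftpc. Other genes were named after their values were seen. The members and lists were chosen with earlier results of these data known. Replicate numbers 1 and 2 are shared by the 2 groups, and no label says that they pair samples. Alternatives were other normalizations, filters, feature rules, weights, covariates, a replicate block and fits without single samples.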

Additional observations from a re-analysis of the deposited data

Results flagged for a closer look

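Among 150 genes and list means tested in the 4 Fgf10+/- normoxia samples, 13 had 1 sample far from the other 3 by Dixon's criterion, where chance gives about 1 in 20. Replicate 1 was high for Fgf23 (9.36), Fdps (10.12) and Pcdhb12 (4.17), and low for Lyve1 (6.01), Smad6 (5.75) and the mean of B cell markers (4.42). Replicate 2 was low for Itih4 (8.63), Dlk1 (10.46), Etv5 (10.32), the chemokine mean (6.62) and Sftpc (15.97, at the top of the scale), and high for the mean of unfolded protein and stress response genes (9.87). Replicate 3 was high for the mean of cholesterol synthesis genes (7.84). The calls of Itih4 and Dlk1 held without replicate 2, and both then lay further from hyperoxia.

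In the interaction test between the genotypes, C1rb (-2.20) and Psd2 (-2.22, under the background level in all samples) passed the threshold. Both adjusted p-values lay just under the threshold. The count of passing genes was 0 when any 1 wild-type sample was left out, so these calls did not hold with 1 wild-type array fewer.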

How the results depend on the processing

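Against 507 calls in Fgf10+/- hyperoxia, the count was 921 with a group mean of at least 6, 792 with a mean over all samples of at least 6, 332 with the mean of all features, 261 with only the 6 Fgf10+/- samples (192 risen, 69 fallen), 115 with the thymocyte covariate, 14 without the 4 libraries highest in thymocyte markers and 282 without the co-varying set. It was 183 with the club and secretory covariate and 4 with the endothelial covariate, both chosen after seeing the data. Leaving out 1 Fgf10+/- sample gave 90 to 503. Array weights (721), an intensity trend (692), quantile normalization (507) and median centring (437) stayed within 1.5 times. Wild-type calls (649) were 1287 and 1172 with the filters, 1000 with the trend, 423 with the thymocyte covariate, 278 without the 4 thymocyte-high libraries, 333 without the set, 286 with the endothelial covariate, and 323 to 679 without 1 sample (323 without normoxia replicate 2, 381 without replicate 4). The interaction count (2) was 1 with the group-mean filter and without the 4 thymocyte-high libraries, 0 with the overall filter, the trend and the 3 covariates, and 0 to 3 without 1 sample. The cause was not tested.

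With the replicate number as a block, 103 genes were called in Fgf10+/- (52 risen, 51 fallen), 216 in wild type and 0 for the interaction. The groups share only numbers 1 and 2, no label says that a number marks a shared litter or day, and 2 pairs cannot test it.

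Of 66 called named genes 12 passed with each Fgf10+/- sample left out: C1rb, Cd74, Cfb, Dlk1, H2-Ab1, H2-Eb1, H2-Q4, Hsd3b2, Itih4, Lrg1, Marchf1 and Oas1a. Over 2086 fits of the 106 named genes, 394 lost a call, 8 gained one and 0 turned the sign of a called gene, while uncalled genes changed sign in 67. Of 869 list medians recomputed over these fits, 145 moved by more than the spread between replicates. A fit with 1 hyperoxia sample assumes that it varies like the other groups. With 2 hyperoxia samples, 1 gene feature per call and no detection flags, changes near the background level of 4.70 are least certain. Background correction and a slide block could not be run.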

Other observations

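Markers of several other cell types were measured in the same 6 arrays. The 5 mesothelial markers all had a negative change (median -1.01) and 0 passed, with array means of 10.23 to 10.76 in normoxia and 9.16 and 9.63 in hyperoxia. Smooth muscle and pericyte markers had 9 of 11 positive changes (median 1.05), fibroblast markers 4 of 12 (median -0.08) and ciliated cell markers 2 of 12 (median -0.60), and 0 passed in each by limma, with 3, 3 and 1 at an unadjusted p under 0.05. Mpo, the myeloperoxidase gene of early granulocytes, was at 7.35, 7.96, 6.88 and 7.30 in normoxia and 5.11 and 5.53 in hyperoxia (limma with Benjamini-Hochberg adjusted p = 0.0431), lost in 5 of the 6 fits without 1 sample (-2.26 to -1.84). Its other, dimmer feature differed by 0.26. It was the 1 of 11 neutrophil markers that fell, and the median of all 11 was 0.38.

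All 10 Fgf10 features were dim. The chosen feature differed by 0.65 between hyperoxia and normoxia (limma adjusted p = 0.442), and the 9 others differed by 0.59 to 1.74, all upward, in samples that carry 1 altered Fgf10 allele in both groups. These features share the same samples, and whether some repeat the same probe was not checked.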
